A study of Mus musculus with 6 samples.

Results

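Glycosaminoglycans are long sugar chains, most of them sulfated, that are built on proteoglycan core proteins, and the genes described here encode the enzymes and transporters that start, extend, sulfate, supply and trim them. The list held 43 genes named by function: 6 of chain start, 6 of chondroitin polymerisation, 11 of chondroitin, dermatan or keratan sulfation and epimerisation, 4 of precursor supply, 5 of heparan polymerisation, 9 of heparan modification and 2 heparan endosulfatases. A gene was measured by all array spots whose only gene symbol was that gene. This gave 66 of the 45220 spots, which covered 42 of the 43 genes, out of 19077 genes with a fitted value. Ndst1, a heparan N-deacetylase and N-sulfotransferase, had no such spot and is not analysed here.

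The tissue came from the tibia and fibula region of hind limbs of Swiss white mouse embryos, microdissected with a scalpel from frozen sections at 3 ages in days post coitum (dpc). Pre-condensed mesenchyme at 11.5 dpc came from 4 hind limbs, mesenchymal condensations at 12.5 dpc from 3 and cartilage anlagen, the first cartilage models of the bones, at 13.5 dpc from 4, each limb from a separate mouse and 231 sections in all. No treatment or altered gene is named for any of them. The RNA of each age was pooled and amplified in 2 rounds, and each pair of ages was compared on 2 two-colour arrays with the dyes exchanged, 6 arrays in all. With 1 pool per age, the arrays repeat the labelling and hybridisation only, so no p-value is given and a difference between ages is a difference between these 3 pools.

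A glycosaminoglycan chain of the chondroitin or heparan kind begins with xylose on a serine of the core protein, followed by galactose residues and glucuronic acid, which together form the linker. If N-acetylgalactosamine is added next the chain becomes chondroitin, part of which can be epimerised to dermatan, and if N-acetylglucosamine is added next it becomes heparan. Both are then sulfated in the Golgi with sulfate from the donor PAPS. In cartilage, sulfated chondroitin chains on aggrecan hold water in the matrix, whereas heparan sulfate binds growth factors such as fibroblast growth factors and hedgehog proteins, and endosulfatases trim its sulfate groups outside the cell. Keratan sulfate, another sulfated chain, does not start from the xylose linker.

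The start of the gene is shown for 4 of the 8 genes that differed at least 3-fold between ages, because 3 of them are sulfotransferase genes that were higher at 13.5 dpc together and the other is a sulfotransferase gene that was lower, so that their upstream sequences can be read side by side. Each window runs from 250 bases before to 50 bases after the RefSeq start of the gene on mouse build GRCm38.p6, 5′ to 3′ on the strand of the gene, with matches to the GC box GGGCGG or its reverse complement CCGCCC in capitals. Chst11 lies at chr10:82985247-82985546 on the + strand, Chst12 at chr5:140505359-140505658 on the + strand, Chst1 at chr2:92600867-92601166 on the + strand and Hs3st1 at chr5:39644582-39644881 on the - strand.
Chst11: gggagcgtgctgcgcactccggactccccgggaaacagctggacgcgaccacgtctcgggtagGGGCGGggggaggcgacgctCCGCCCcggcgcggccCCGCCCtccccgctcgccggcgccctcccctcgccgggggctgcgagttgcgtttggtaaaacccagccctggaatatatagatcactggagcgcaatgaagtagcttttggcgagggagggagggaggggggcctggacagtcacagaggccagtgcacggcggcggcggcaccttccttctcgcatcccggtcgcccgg
Chst12: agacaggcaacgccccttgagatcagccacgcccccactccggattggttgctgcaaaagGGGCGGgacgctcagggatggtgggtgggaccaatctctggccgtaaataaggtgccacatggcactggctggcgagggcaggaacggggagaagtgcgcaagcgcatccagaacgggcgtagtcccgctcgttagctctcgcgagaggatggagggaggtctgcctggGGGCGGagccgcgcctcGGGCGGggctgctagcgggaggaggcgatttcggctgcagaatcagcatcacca
Chst1: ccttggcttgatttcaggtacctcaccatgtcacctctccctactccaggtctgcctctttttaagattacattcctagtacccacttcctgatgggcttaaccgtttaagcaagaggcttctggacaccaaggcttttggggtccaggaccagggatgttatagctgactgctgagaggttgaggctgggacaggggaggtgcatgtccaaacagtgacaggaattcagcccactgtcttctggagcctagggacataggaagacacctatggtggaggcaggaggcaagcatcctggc
Hs3st1: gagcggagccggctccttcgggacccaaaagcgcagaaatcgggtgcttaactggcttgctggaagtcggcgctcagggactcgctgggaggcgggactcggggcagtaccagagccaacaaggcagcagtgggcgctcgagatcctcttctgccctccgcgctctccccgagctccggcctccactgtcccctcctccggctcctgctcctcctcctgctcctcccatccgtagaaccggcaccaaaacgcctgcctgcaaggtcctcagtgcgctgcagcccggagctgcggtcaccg

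A GC box was found 3 times in the window of Chst11 and 3 times in that of Chst12, and not in those of Chst1 and Hs3st1. Slc35d1 and Chpf, which were also higher at 13.5 dpc, had 2 matches each, so that 4 of the 6 differing genes with an entry in the RefSeq table held the motif, beside 35.7% of all 32851 windows of the same length. The CCAAT box, searched as CCAAT and ATTGG, was found 2 times in Chst12, away from the capitals, and in none of the other 5, beside 37.4% of all windows. Neither the TATA box TATAAA, held by 13.6% of all windows, nor the SOX core AACAAT, held by 10.7%, was found on either strand of these 6 windows. The Chst1 window stood apart in base composition, with a G and C content of 52.7%, equal to the median of all windows, and an observed over expected CpG ratio of 0.0482, whereas the other 5 ranged from 65.0% to 75.3% and from 0.675 to 0.902. These matches describe letters in the windows and show no binding. Of the 42 measured genes 34 had an entry, and Csgalnact1 on chromosome 8 and Sulf1 on chromosome 1 are named only.

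All values below are log2 ratios of the later over the earlier age, after the median of each array was set to 0, and a gene is the mean of its spots. The fitted ratio uses all 6 arrays at once. The technical error, written after ±, is the absolute difference between the 2 direct arrays of a comparison divided by 2. It describes that pair of arrays with exchanged dyes, so it includes any dye difference and is not an error of the fit. A gene is called higher or lower when the fitted ratio passed 3-fold. Before centring, the array medians ranged from -0.355 to 0.725. The 2 direct arrays of a comparison correlated across spots, which are not independent replicates, at 0.332 to 0.518. The median technical error of the listed genes was 0.16, 0.21 and 0.18 for 12.5 over 11.5, 13.5 over 12.5 and 13.5 over 11.5 dpc, and that of all genes 0.18, 0.20 and 0.19. Of the 66 spots 12 were dim by the form of their values, which were logs of ratios of small whole numbers.

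The labelled tissues were set against marker genes. Of 11 cartilage markers 10 were higher at 13.5 than at 11.5 dpc (median 3.49), and the exception was Sox9, a transcription factor of cartilage precursors, at -0.40. On both direct arrays 8 of the 11 passed 3-fold upward, beside 2.03% of all genes. The 2 direct arrays put the median of these markers at 4.08 and 2.89, so the size of the difference depended on the array. Of the 4 condensation markers 1 was lower, Pcdh8 at -4.55, and none was higher at 12.5 than at 11.5 dpc by 3-fold (median -0.06). Muscle markers were higher in 3 of 9 (median 0.64), 1 of 5 tendon and perichondrium markers was higher (-0.56), and lower were 1 of 7 endothelial (-0.64), 2 of 5 erythroid (-1.21), 1 of 4 macrophage (-0.37) and 1 of 5 ectodermal (0.00) markers, with none of 3 Schwann and neural crest markers past 3-fold. The results below were measured in the same 3 pools as these markers. In pooled tissue, more cells of a type and more RNA per cell cannot be told apart, and the part of cell composition in the results was not tested.

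Between 11.5 and 13.5 dpc, 6 of the 42 genes were higher and 2 were lower. The 6 were Csgalnact1, Chpf, Chst1, Chst11 and Chst12, which act in chondroitin or keratan chain synthesis, and Slc35d1, listed under precursor supply. The 2 were Hs3st1 and Sulf1, which modify heparan sulfate. Of all 19077 genes 2.93% were higher and 2.57% lower in this comparison. On both direct arrays 5 of the 42 passed 3-fold upward, beside 2.03% of all genes, and 2 downward, beside 1.95%. The median ratio of the 42 was 0.59, beside 0.07 for all genes, and 31 lay above 0 and 11 below. The 2 direct arrays put that median at 0.91 and 0.33. Of all 19077 genes 10411 lay above 0, 6795 of them by more than their technical error, and in the later step alone 8874 and 5839 did, which is the background for the counts of signs within branches.

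**Figure D1:**
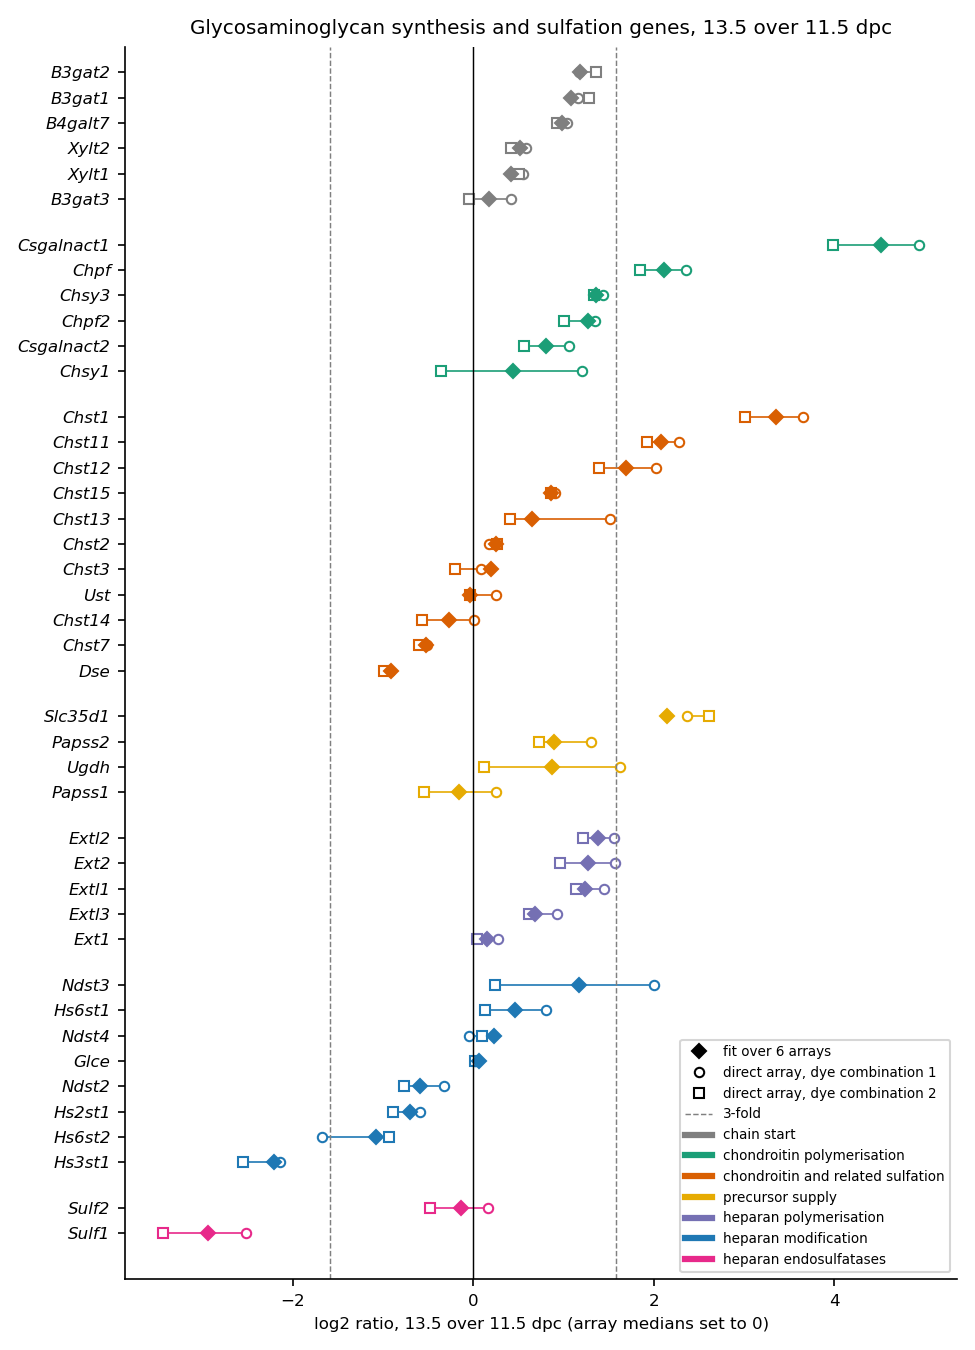
Log2 ratio of 13.5 over 11.5 dpc (x axis, array medians at 0) for each of the 42 measured genes (y axis), with the fit over 6 arrays as diamonds, the 2 direct arrays as open symbols joined by a line, branches by colour and 3-fold as dashed lines. Csgalnact1 sits farthest right at 4.52 and Sulf1 farthest left at -2.95. The diamond of Slc35d1 and of a few other genes lies outside the line between the direct arrays, since the fit also uses the arrays of the other comparisons. For Slc35d1 the first direct array also lacks a dim spot.

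The differences lay mostly in the later step. From 11.5 to 12.5 dpc only Csgalnact1 was higher and no gene was lower, beside 1.24% and 0.299% of all genes, and no gene passed 3-fold on both direct arrays, beside 0.426% and 0.144%. From 12.5 to 13.5 dpc 5 genes were higher and 2 lower, beside 1.35% and 0.776%, and 3 and 1 of them passed on both direct arrays, beside 0.987% and 0.332%. The median ratio of the 42 genes was 0.17 in the earlier step and 0.33 in the later, beside -0.01 and -0.04 for all genes. No test sets the steps against each other, since both use the 12.5 dpc pool.

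**Figure D2:**
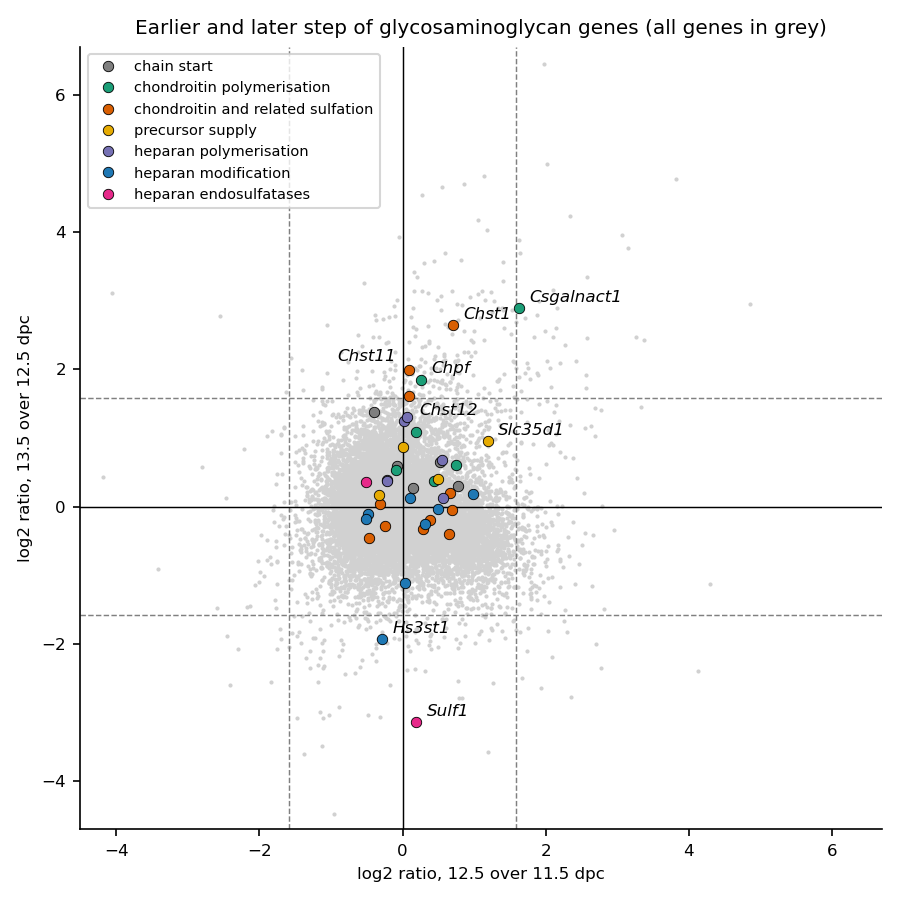
Fitted log2 ratio of the earlier step, 12.5 over 11.5 dpc (x axis), against the later step, 13.5 over 12.5 dpc (y axis), for the 42 genes by branch and for all genes in grey, with dashed lines at 3-fold. Hs3st1 and Sulf1 lie below the lower dashed line of the y axis, Chst1, Chst11, Chst12, Chpf and Csgalnact1 above the upper, and only Csgalnact1 to the right of the dashed line of the x axis. Both axes share the 12.5 dpc pool.

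Chain start showed small ratios that all pointed up over the whole interval. In the earlier step 3 genes lay above 0 and 3 below (median 0.04). All 6 genes lay above 0 for 13.5 over 11.5 dpc, from 0.17 to 1.18 with a median of 0.75, 5 of them by more than their technical error, and none passed 3-fold. Xylt1 and Xylt2, the xylosyltransferases that attach the first sugar, had ratios of 0.42 and 0.52. B4galt7, which adds the first galactose, was at -0.40 in the earlier step and 1.38 in the later, so that its level was lowest at 12.5 dpc, and both direct arrays of each step had these signs. B3gat3, which adds the closing glucuronic acid, was at 0.17, with its 3 brighter spots between 0.32 and 0.74 and its dim spot at -0.86. Its relatives B3gat1 and B3gat2, best known for the HNK-1 sugar epitope of neural cells, were at 1.08 and 1.18. The 2 arrays of B3gat2 in the later step opposed each other at 1.63 and -0.49, and the brighter spot of B3gat1 was at 1.92 and its dim spot at 0.23.

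Chondroitin polymerisation had the highest ratio in the list and no gene below 0 in the longer comparison. Its 6 genes ranged from 0.44 to 4.52 for 13.5 over 11.5 dpc (median 1.32), and all 6 lay above 0 in the later step, each by more than its technical error (median 0.85, beside 0.35 in the earlier step). Csgalnact1, which adds the first N-acetylgalactosamine and so commits a chain to chondroitin, was the gene with the highest ratio. Its fitted level stood at 1 at 11.5 dpc, 3.08 at 12.5 dpc and 22.95 at 13.5 dpc, where a level is the fold over the lowest age of the same gene. The arrays of 12.5 over 11.5 dpc read 1.44 and 1.93, those of 13.5 over 12.5 dpc 2.97 and 2.94 and those of 13.5 over 11.5 dpc 4.94 and 3.98. Every array had the later age higher, and the lower array of the longest comparison was above both arrays of either step. The fitted ratios were 1.62 ± 0.24, 2.90 ± 0.02 and 4.52 ± 0.48 (technical error, 2 arrays). The first of these lay close to 3-fold and fell below it in 3 of 15 alternative settings, whereas the others stayed above in all 15. The paralogue Csgalnact2 was at 0.43, 0.37 and 0.80 for the same comparisons and passed 3-fold in none.

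Chpf, the chondroitin polymerising factor, had levels of 1, 1.20 and 4.32 at the 3 ages. Its arrays read -0.21 and 0.75 in the earlier step, 1.56 and 2.16 in the later and 2.36 and 1.84 over both. The earlier step had arrays of opposite sign, whereas the later had both arrays high, and the fitted ratios were 0.26 ± 0.48, 1.85 ± 0.30 and 2.11 ± 0.26. In the later step the first array lay just under 3-fold and the second above. The polymerases Chsy3 and Chpf2 lay next below it at 1.36 and 1.27. The 3 spots of Chsy3 spanned 0.79 to 1.94. For Chpf2 the brighter of 2 spots was at 2.31 and the dim spot at 0.24, so that the gene would pass 3-fold on the brighter spot alone. Chsy1, a polymerase that makes the same bond, had arrays of 1.21 and -0.36 around a fitted 0.44, a ratio below its technical error of 0.78.

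Of the 11 genes of sulfation and epimerisation, 3 were higher at 13.5 than at 11.5 dpc and none was lower, and the other 8 lay between -0.92 and 0.86. The branch median of 0.25 was therefore low although its upper end reached 3.36. Chst1, a sulfotransferase that acts on the galactose of keratan sulfate, had levels of 1, 1.63 and 10.25. Its arrays read 0.67 and 0.79 in the earlier step, 2.47 and 2.88 in the later and 3.66 and 3.01 over both. The pair of the earlier step lay close together and that of the longest comparison less so, and most of the difference lay between 12.5 and 13.5 dpc. The fitted ratios were 0.71 ± 0.06, 2.65 ± 0.20 and 3.36 ± 0.32. Its window printed above was the one with few CpG.

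Chst11 and Chst12 encode sulfotransferases that place sulfate on carbon 4 of the N-acetylgalactosamine of chondroitin, and they had the same course. Chst11 had levels of 1, 1.06 and 4.24, and its arrays read -0.10 and 0.24 in the earlier step, 2.01 and 1.95 in the later and 2.28 and 1.92 over both. Chst12 had levels of 1, 1.06 and 3.24, with arrays at -0.09 and 0.24, then 1.39 and 1.81, then 2.02 and 1.39. Both were flat to 12.5 dpc, with arrays on either side of 0, and higher on every array that held the 13.5 dpc pool. The fitted ratios of 13.5 over 11.5 dpc were 2.08 ± 0.18 for Chst11, whose 3 spots spanned 1.65 to 2.38, and 1.69 ± 0.32 for Chst12, whose 2 spots lay at 1.50 and 1.88. Chst12 was the called gene nearest to 3-fold. Without the first array of 13.5 against 11.5 dpc it stood at 1.53, below the threshold, and in the later step its fitted 1.61 fell below the threshold in 4 of 15 settings. Chst13, their relative, was measured by a dim spot only, with arrays of 1.52 and 0.40 around a fitted 0.65.

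None of the other sulfotransferases of this branch passed 3-fold. Chst3 and Chst7, which sulfate carbon 6 of the same sugar, were at 0.20 and -0.53, and the 2 spots of Chst3 lay on either side of 0 at -0.16 and 0.56. Chst15, which adds a further sulfate to units already sulfated on carbon 4, was at 0.86 with arrays of 0.90 and 0.86. Chst2, a sulfotransferase of N-acetylglucosamine, was highest at 12.5 dpc, at 0.64 and then -0.40, a course unlike that of the called genes. The genes of dermatan sulfate did not share the direction of Chst11 and Chst12: the epimerase gene Dse was at -0.92 with arrays of -0.92 and -0.99, and Chst14, the dermatan 4-O-sulfotransferase gene, at -0.28. Ust, which sulfates uronic acid, was at -0.04 on a dim spot.

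Precursor supply held 1 gene past 3-fold. Slc35d1, which carries UDP-glucuronic acid and UDP-N-acetylgalactosamine into the endoplasmic reticulum, had levels of 1, 2.28 and 4.41. Its arrays read 0.92 and 0.98, then 0.59 and 0.84, then 2.37 and 2.61, and its fitted ratio of 13.5 over 11.5 dpc was 2.14 ± 0.12. A dim spot had no value on the first array of 13.5 over 11.5 dpc. The 2 arrays of that comparison are thus means over different spots, and ± 0.12 does not measure how well they agree. All arrays had the later age higher, but the 3 spots of the gene differed more over both steps than those of any other gene listed. The brighter spot was at 3.86, with arrays of 4.35 and 3.27, and held nearly all of its difference in the later step (3.20, beside 0.66 in the earlier), whereas the dim spots were at 0.83 and 1.73. The value of the gene without its dim spots was thus 3.86, and 2.14 is a mean over spots that disagree. Papss2, a PAPS synthase with a known part in growth of the skeleton, was at 0.89, with a brighter spot at 1.27 and a dim spot at 0.52, and Papss1 was at -0.15. Ugdh, which makes UDP-glucuronic acid, was at 0.88 on arrays of 1.62 and 0.12 that did not agree.

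**Figure D3:**
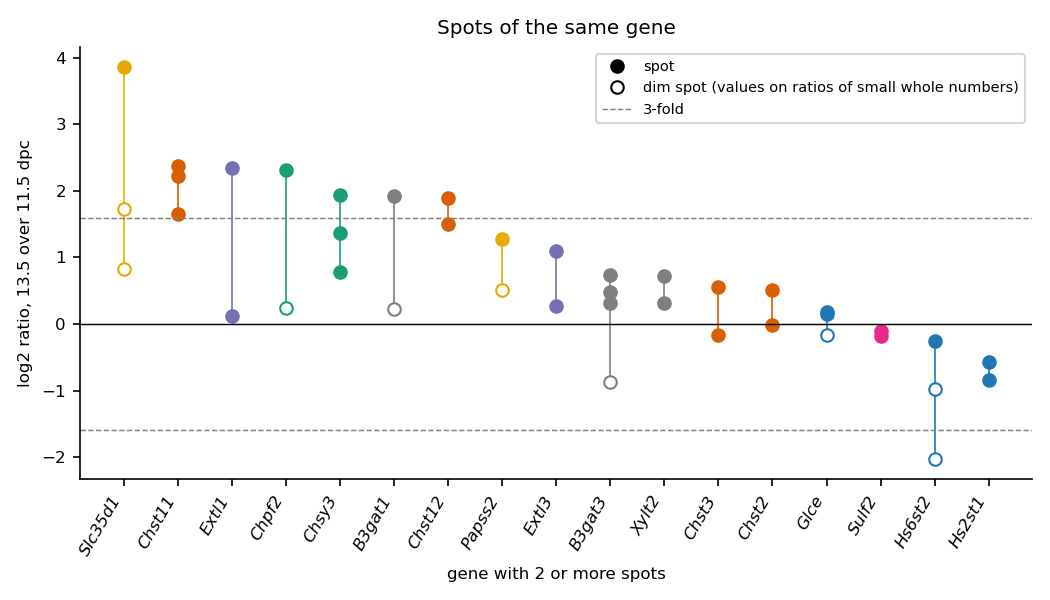
Fitted log2 ratio of 13.5 over 11.5 dpc (y axis) of each spot of the 17 genes with more than 1 spot (x axis), dim spots open, colours by branch as in the plot of all genes, dashed lines at 3-fold. Slc35d1 spans 0.83 to 3.86, and its dim spots lie lowest, as do those of Chpf2 and B3gat1.

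Spots of the same gene lay on opposite sides of 0, or of the 3-fold threshold, for 7 of these 17 genes in the comparison of 12.5 over 11.5 dpc, 9 in that of 13.5 over 12.5 dpc and 11 in that of 13.5 over 11.5 dpc. The 11 included Chst12 and Slc35d1 among the called genes. Csgalnact1, Chpf, Chst1, Hs3st1 and Sulf1 were measured by a single spot each, none of them dim, so their values have no second probe beside them.

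Heparan polymerisation had no gene past 3-fold and none below 0 over the whole interval. All 5 genes lay above 0 for 13.5 over 11.5 dpc, from 0.15 to 1.38 (median 1.23), each by more than its technical error. Extl2 and Ext2 were at 1.38 and 1.27 with arrays of 1.55 and 1.21 and of 1.57 and 0.96, and both were flat in the earlier step at 0.07 and 0.02. Ext2 forms the heparan polymerase together with Ext1, and Ext1 was at 0.15, with arrays of 0.28 and 0.04. The partners of the enzyme complex thus had different ratios. Extl1 was at 1.23 as the mean of spots at 2.34 and 0.13, and Extl3, which adds the first N-acetylglucosamine, at 0.68 with spots at 0.27 and 1.10. Extl2 was, with Chsy3, the gene nearest below 3-fold.

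Heparan modification had a median of -0.27 over its 8 measured genes, with 4 above 0 and 4 below. Hs3st1, the 3-O-sulfotransferase known for the antithrombin-binding form of heparan sulfate, was the gene with the lowest ratio here. Its levels were 4.64 at 11.5 dpc, 3.82 at 12.5 dpc and 1 at 13.5 dpc. Its arrays read -0.25 and -0.05 in the earlier step, -2.08 and -1.52 in the later and -2.14 and -2.55 over both. All 6 arrays had the later age lower, and the arrays with the 13.5 dpc pool were all below those without it. The fitted ratios were -0.28 ± 0.10, -1.93 ± 0.28 and -2.21 ± 0.20, and the last of these was past 3-fold in all 15 alternative settings.

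Hs6st2, which adds 6-O-sulfate, was at -1.08, of which the dim spots at -0.97 and -2.02 made the larger part, since the brighter spot was at -0.25. Hs6st1, its paralogue, was at 0.46. Hs2st1, the 2-O-sulfotransferase gene, was at -0.70 with spots at -0.57 and -0.83, and Ndst2, an N-deacetylase and N-sulfotransferase gene, at -0.59. Ndst3 had arrays of 2.01 and 0.24 around 1.17, Ndst4 was at 0.23 on a dim spot, and Glce, the epimerase gene, was at 0.06. The direction in this branch was thus mixed, and apart from Hs3st1 no gene passed 3-fold.

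Sulf1 encodes an endosulfatase that removes 6-O-sulfate from heparan sulfate at the cell surface, and it was the gene with the lowest ratio of the whole list. Its levels were 7.70 at 11.5 dpc, 8.79 at 12.5 dpc and 1 at 13.5 dpc. Its arrays read 0.37 and 0.08 in the earlier step, -2.83 and -3.37 in the later and -2.52 and -3.44 over both. The arrays of the earlier step were close to 0, and the gene was low on each of the 4 arrays that held the 13.5 dpc pool. The fitted ratios were 0.19 ± 0.15, -3.14 ± 0.27 and -2.95 ± 0.46. Its paralogue Sulf2, with the same activity, was at -0.50, 0.36 and -0.14, with its spots at -0.18 and -0.10 in the last of these.

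**Figure D4:**
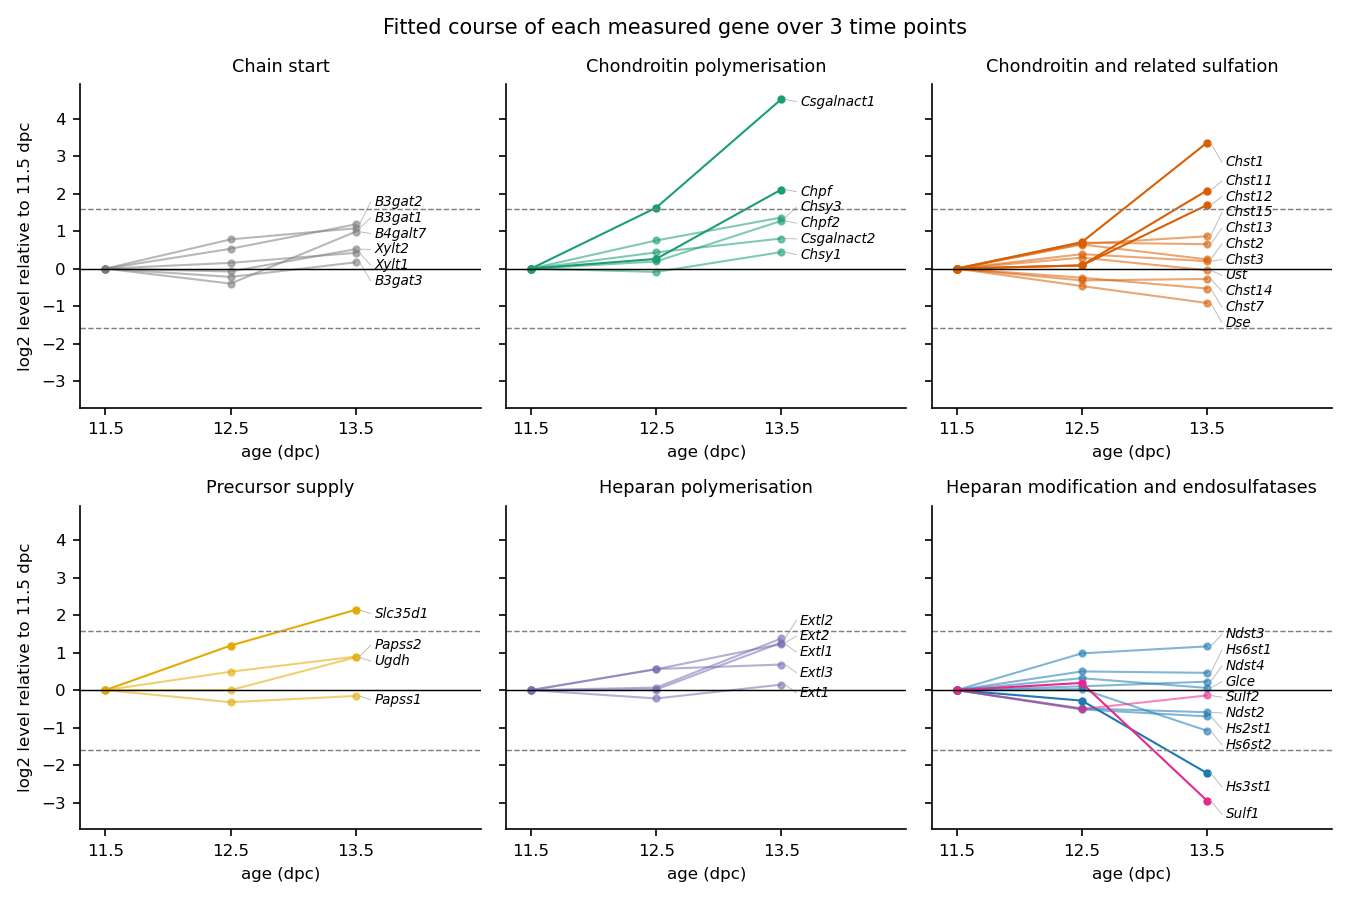
Fitted log2 level relative to 11.5 dpc (y axis) at 11.5, 12.5 and 13.5 dpc (x axis) of each measured gene, 1 panel per step of synthesis with the endosulfatases beside heparan modification, called genes in full colour and dashed lines at 3-fold. Chst11, Chst12, Chpf, Hs3st1 and Sulf1 run level to 12.5 dpc and separate by 13.5 dpc, whereas Csgalnact1 rises in both steps.

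Seen by branch, the 17 genes of chondroitin polymerisation and of chondroitin or related sulfation had a median of 0.80 for 13.5 over 11.5 dpc with 5 genes higher and none lower. The 15 measured heparan genes had a median of 0.15 with none higher and 2 lower. All genes had 2.93% higher and 2.57% lower, so none higher among 15, or none lower among 17, lies near those shares. The branch counts hold for the listed genes only. Of 5 measured heparan modification genes not on the list, 2 were higher, Hs3st3b1 at 3.55 and Hs3st3a1 at 1.97, and none was lower. Within the heparan branch the polymerisation genes were at 1.23 and the modification genes at -0.27. Genes of a branch are not replicates, so these medians are descriptions and the difference between branches was not tested. On the 2 direct arrays the heparan median lay at 0.16 and 0.04 and that of the chondroitin genes at 1.21 and 0.56. The heparan median lay at 0.03 when each comparison used the mean of its direct arrays alone, and at 0.31 without centring.

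Other genes of the pathway, which were not on the list, gave a wider view. Of 4 measured genes of the linker, its kinase and its phosphatase, 1 was higher at 13.5 than at 11.5 dpc: Fam20b, the kinase that phosphorylates the linker xylose, at 2.29 with arrays of 2.62 and 2.18, although its 3 spots spanned 0.07 to 5.28. The median of the 4 was 0.13, with 2 above 0 and 2 below. Of 5 further genes of heparan modification 2 were higher. These were Hs3st3b1 at 3.55, with arrays of 3.82 and 3.25, and Hs3st3a1 at 1.97, with arrays of 2.07 and 1.94, both 3-O-sulfotransferase genes like Hs3st1, which was lower. The 3-O-sulfotransferase genes therefore did not move as a family. None of 10 further genes of chondroitin, dermatan and keratan synthesis (median 0.31) and none of 13 lysosomal or extracellular breakdown genes (median 0.05) passed 3-fold. In lists this short that lies near the share of all genes, 2.93% higher and 2.57% lower. Of 16 further genes of sugar nucleotide and sulfate supply none passed 3-fold over both steps (median 0.56), while 15 lay above 0 in the later step (median 0.69), beside 8874 of the 19077 genes. The 1 higher in that step, named after its value was seen, was Slc26a2, a sulfate transporter gene, at 1.63 there and 1.49 over both steps.

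Core proteins to which the chains are attached were read from the same arrays. Of 15 that carry chondroitin, dermatan or keratan chains 9 were higher at 13.5 than at 11.5 dpc and 2 lower, with a median of 2.12. All genes had 2.93% higher and 2.57% lower. Aggrecan (Acan), the main chondroitin sulfate carrier of cartilage, was at 4.68 with arrays of 5.74 and 3.11. Versican (Vcan), the chondroitin sulfate proteoglycan of loose mesenchyme, was at -2.72 with arrays of -2.62 and -2.66 and 4 spots that spanned -4.80 to -0.39, so that the carriers themselves lay in opposite directions. Of 12 measured heparan sulfate carriers 1 was higher and 1, on a dim spot, lower, with a median of 0.51. The higher was syndecan 4 (Sdc4), a membrane carrier, at 2.35 with arrays of 2.53 and 2.27. Acan is also among the cartilage markers above, and these lists were drawn up with earlier results of the same arrays known.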

How the data were processed

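Each of the 6 arrays compared 2 of the 3 RNA pools, and samples were grouped by the pair of ages in their labels. The deposited values are log2 ratios of Cy5 over Cy3 signal per spot of an Agilent whole mouse genome array, which the authors scanned on an Axon scanner and quantified in GenePix Pro. Their methods name a print-tip loess in limmaGUI. The medians of the deposited log2 values lay away from 0, and many spots held logs of ratios of small whole numbers. Whether the values were taken before that step was not settled. Arrays held 43276 to 45035 values, and 39 to 60 absolute values above 16, a cap, were set to missing. No intensities were used here, so signal over background is unknown beyond the dim mark.

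Each array was turned to later over earlier and centred on its median. The 2 independent differences between the ages were fitted by least squares over 6 arrays for 45108 spots. A gene was the mean of the spots with its symbol alone in the platform annotation (33653 spots with 1 symbol). A spot was dim when its values were logs of ratios of whole numbers up to 12 on at least 2 arrays, which marked 15051 spots. A gene was called at 3-fold. The steps were tested on simulated data. Python 3.11.15, numpy 2.4.6 and pandas 2.3.3 were used, and matplotlib 3.10.9 drew the figures. Promoter windows came from RefSeq, build GRCm38.p6. The members, gene lists and markers were chosen with earlier results of these data known. Genes past 3-fold in any comparison are given in full, the others by value or range. Other pathway genes and core proteins were named only if past 3-fold in the fit and on both arrays of 13.5 against 11.5 dpc, apart from Slc26a2, Pcdh8 and Sox9.

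The replicate number in the labels is the dye combination. Deviations of arrays with the same dye combination from their comparison means correlated at 0.362 to 0.595 across spots, so that the number pairs arrays by dye, not by animal. Going round the loop of 3 comparisons left a spot misfit with an SD of 0.452, and a median absolute misfit of 0.10 in the listed genes and 0.13 in all genes. Alternatives without centring, with scaled arrays, without dim spots, with complete spots, by dye combination, on direct arrays, with a dye block, with the spot median, at other thresholds and without each array were run.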

Additional observations from a re-analysis of the deposited data

How the results depend on the processing

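Over 1881 recalculated values of single genes, 1541 moved by no more than the technical error, 340 by more, and none of the called values turned its sign. The 1541 include values that could not move, so they are not a measure of stability. A gene with a single spot that was complete and not dim keeps its value under the spot median, without dim spots and on complete spots. The replicate block on the dye combination left 123 of 126 gene values equal to 2 decimals and kept 6 higher and 2 lower genes for 13.5 over 11.5 dpc. Each comparison holds both dye combinations, so the block cannot change the fit of a spot with all 6 values. Its unchanged values were thus fixed by the design and say nothing about dye differences. The block changed no other count of listed genes.

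The 6 genes higher at 13.5 than at 11.5 dpc became 14 at 2-fold. The 1 gene higher at 12.5 than at 11.5 dpc became 2 without centring and at 2-fold, and 0 with arrays scaled to a common spread and at 4-fold. Leaving out 1 array gave 0 to 1, with 0 without the first array of 13.5 against 11.5 dpc or the second of 12.5 against 11.5 dpc. The 5 genes higher at 13.5 than at 12.5 dpc became 3 without centring, where 2 were lower as before, 9 at 2-fold and 2 at 4-fold, and the 2 lower genes became 1 at 4-fold. The chondroitin median of 0.80 became 1.21 and 0.72 on dye combinations 1 and 2, and was 0.56 on the second direct array. The heparan median of 0.15 became 0.31 without centring, 0.08 and 0.21 on dye combinations 1 and 2, 0.03 on direct arrays, and 0.04 to 0.21 without 1 array. The chain start median of 0.75 became 0.92 without centring, 0.69 and 0.68 on dye combinations 1 and 2, and 0.70 to 0.78 without 1 array. The causes were not tested.

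Of the genes below 3-fold, Chpf2 passed for 13.5 over 12.5 and over 11.5 dpc (2.18 and 2.31) and B3gat1 for 13.5 over 11.5 dpc (1.92) without dim spots. Slc35d1 passed for 13.5 over 12.5 dpc without dim spots (3.20), on spots with complete values (1.60) and on direct arrays (1.63), and for 12.5 over 11.5 dpc without centring (1.66). Ndst3 passed for 13.5 over 11.5 dpc on dye combination 1 (2.42) and without the second direct array (1.63). Chpf fell to 1.57 in the later step without centring.

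Without centring, the median of all genes was 0.44, -0.32 and 0.24 for 12.5 over 11.5, 13.5 over 12.5 and 13.5 over 11.5 dpc. All genes then counted 853 higher and 14 lower (237 and 57 with centring), 172 and 306 (258 and 148), and 707 and 341 (559 and 490). For 12.5 over 11.5 dpc, 144 genes were higher on dye combination 1, 146 without dim spots, 751 with 133 lower on dye combination 2, and 465 with 87 lower without the first array of that comparison. For 13.5 over 12.5 dpc, 343 were lower on dye combination 1 and 301 without the second array. For 13.5 over 11.5 dpc, 924 were higher on dye combination 2.

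With 1 pool per age, variation between litters or dissections was not measured, and the values cannot be read as a spread between animals.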
